A study of Mus musculus with 12 samples.

Results

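*Zfp949*, *Psd2*, *Lhx6*, *Mal*, *Dnase1l3* and *St6gal1* are 6 of the 14159 genes listed for inguinal white adipose tissue (iWAT) of Atf4WT and Atf4AKO mice, and they lie outside the chromosome that carries *Atf4*. They were chosen by a genotype difference in an earlier analysis of the same libraries, so their genotype differences are given as a description, with no test. Polyadenylated RNA of whole iWAT had been sequenced from 4 groups with 3 biological replicates each: Atf4WT mice housed at room temperature (RT, 22 °C), Atf4AKO mice at RT, Atf4WT mice after 24 h of cold exposure (5 °C) and Atf4AKO mice after 24 h of cold exposure. Atf4AKO mice carried floxed *Atf4* alleles and the *Adipoq*-Cre transgene, which is active in adipocytes, and Atf4WT mice were their floxed littermates without Cre, all on the C57BL/6 background. The Cre transgene and the loss of *Atf4* therefore cannot be told apart, and the other cells of the depot still carry an intact floxed gene. The age of the mice behind these libraries was not given in the sources used here. Values are normalized counts, that is, the reads of a gene divided by the size factor of the library, and replicates are named 0, 1 and 2 as in the labels.

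The 6 genes share no pathway. *Zfp949* encodes a zinc finger protein, a large family of mostly DNA-binding factors. *Lhx6* encodes a LIM homeodomain transcription factor, best known from interneurons of the forebrain. *Mal* encodes a small proteolipid with the MARVEL membrane domain that takes part in apical membrane traffic and is abundant in compact myelin, which Schwann cells make around peripheral axons. *Psd2* encodes an exchange factor that loads the small GTPase ARF6 with GTP. *Dnase1l3* encodes a secreted DNase, made mainly by myeloid cells, that digests chromatin outside cells. *St6gal1* encodes the sialyltransferase that caps the galactose ends of N-glycans and makes the ligand of the B cell receptor CD22. ATF4, the factor deleted in adipocytes here, is a bZIP transcription factor of the integrated stress response that binds C/EBP-ATF elements in the genes of amino acid supply and redox defence.

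The depth over the listed genes was 25719476 to 29105147 reads. *Atf4* itself was between 4107 and 7644 in the 6 Atf4WT libraries and between 788 and 1639 in the 6 Atf4AKO libraries, and the thermogenic gene *Ucp1* was between 204 and 1097 at RT and between 73632 and 119558 in the cold, so both checks followed the labels. Some libraries stood apart in markers of other cell types. The summed B cell markers reached 5345 in Atf4WT RT replicate 2 against 219 and 293 in the other Atf4WT libraries at RT, and the summed skeletal muscle markers were 109405 in that library and 38854 in Atf4WT cold replicate 0 against at most 5922 in any other library. The summed macrophage markers were 6443 in Atf4AKO cold replicate 1 and 15702 in Atf4WT cold replicate 1 against at least 28821 elsewhere. In bulk tissue, fewer cells of a type and less RNA per cell cannot be told apart.

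RefSeq start site windows were searched for 4 of the 6 genes, namely *Zfp949*, *Lhx6*, *Mal* and *St6gal1*. None was held for *Dnase1l3*, and *Psd2* was left out of the search. The 250 bases before the first start site are shown because the deleted factor is a DNA-binding protein and a start site window is where a match to its element would be looked for first. They are written 5′ to 3′ on the strand of the gene (GRCm38.p6), and motif matches would stand in capitals.
Zfp949, chr9:88547770-88548019 (plus strand): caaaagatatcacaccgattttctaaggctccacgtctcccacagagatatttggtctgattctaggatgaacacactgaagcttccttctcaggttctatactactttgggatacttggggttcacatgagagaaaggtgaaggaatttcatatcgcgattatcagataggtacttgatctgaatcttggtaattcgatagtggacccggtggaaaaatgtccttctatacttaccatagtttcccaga
Lhx6, chr2:36105409-36105658 (minus strand): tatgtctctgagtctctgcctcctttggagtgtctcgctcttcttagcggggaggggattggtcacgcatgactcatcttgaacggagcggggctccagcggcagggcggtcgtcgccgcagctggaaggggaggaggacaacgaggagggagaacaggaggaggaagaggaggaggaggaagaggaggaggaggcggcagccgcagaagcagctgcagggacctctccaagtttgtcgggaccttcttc
Mal, chr2:127656696-127656945 (minus strand): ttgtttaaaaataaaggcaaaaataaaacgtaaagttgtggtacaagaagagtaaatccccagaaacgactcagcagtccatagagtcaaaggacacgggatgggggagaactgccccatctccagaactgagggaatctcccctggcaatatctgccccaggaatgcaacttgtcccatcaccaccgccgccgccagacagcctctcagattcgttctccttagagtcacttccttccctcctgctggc
St6gal1, chr16:23224490-23224739 (plus strand): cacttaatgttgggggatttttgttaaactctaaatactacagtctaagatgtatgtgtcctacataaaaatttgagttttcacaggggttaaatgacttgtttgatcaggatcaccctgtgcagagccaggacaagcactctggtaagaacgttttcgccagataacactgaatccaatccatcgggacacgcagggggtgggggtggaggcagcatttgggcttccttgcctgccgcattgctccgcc
The windows, each of 300 bases with 50 bases after the start, were searched on both strands for the C/EBP-ATF element TGATGNAA, which 3.97% of 32817 windows of all genes hold, for the full cAMP response element TGACGTCA, which 1.79% hold, and for its core TGACG, which is part of the full element and which 20.8% hold. None of the 8 windows of these 4 genes, alternative starts included, held either of the first 2 motifs. The only match was 1 TGACG in the window of *Mal*, which begins 12 bases after the start and so is not in the stretch above. It is shown with 10 bases on each side and the match in capitals.
Mal core match, chr2:127656669-127656693 (minus strand): atagtttcccTGACGagccttgctg
The GC content of the first windows was 43.3% for *Zfp949*, 63.3% for *Lhx6*, 51.0% for *Mal* and 48.0% for *St6gal1*, against a median of 52.7% over all windows.

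All 6 genes were detected in all 12 libraries, and all 6 passed the filter of a mean of at least 10 normalized counts that left 13404 genes for the tests. Per kilobase of annotated exon, the levels in Atf4WT iWAT at RT were 124 ± 15.3 (SD, n = 3) for *St6gal1*, 98.0 ± 17.3 for *Mal*, 86.6 ± 20.8 for *Zfp949*, 40.8 ± 2.49 for *Lhx6*, 11.5 ± 4.21 for *Dnase1l3* and 4.16 ± 1.10 for *Psd2*. *St6gal1*, *Mal* and *Zfp949* stood closest to each other, at levels whose SDs met or nearly met, and *Psd2* was the lowest, at 3 to 28 reads per library. After cold exposure, 3 of the 6 genes were higher and 3 were lower in Atf4AKO than in Atf4WT iWAT without overlap of the libraries. Over all tested genes, 16.5% did not overlap in this comparison. At RT, only *Zfp949* did not overlap, where 6.3% of all tested genes did not. These counts follow from how the 6 genes were chosen, and nothing is read from them.

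**Figure D1:**
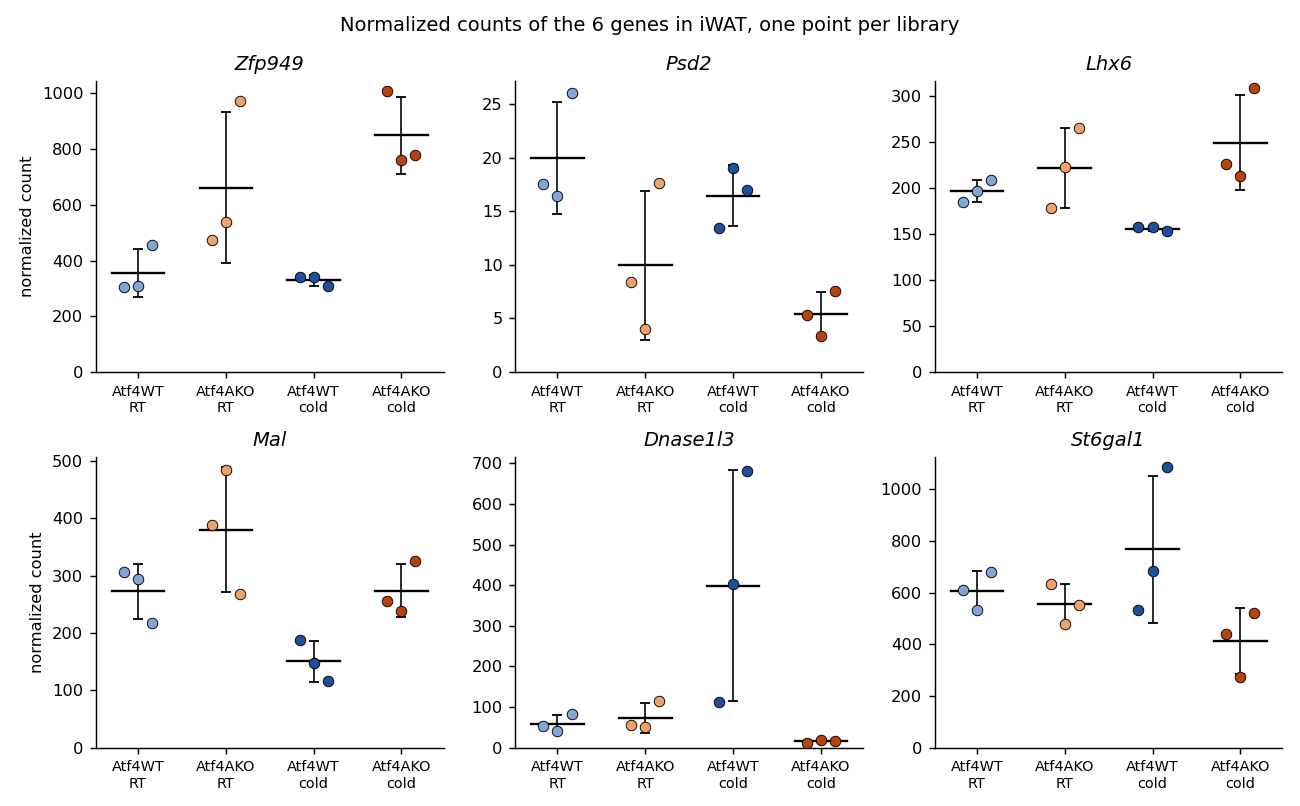
Normalized counts (linear axes from 0) of the 6 genes in the 4 groups of iWAT, with 1 point per library in the order of replicates 0, 1 and 2, the mean as a horizontal line and the SD as an error bar. In the cold, *Zfp949*, *Lhx6* and *Mal* are higher and *Psd2*, *Dnase1l3* and *St6gal1* are lower in the 3 Atf4AKO libraries than in the 3 Atf4WT libraries.

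*Zfp949* was the only one of the 6 genes whose Atf4AKO libraries lay above the Atf4WT libraries without overlap at both temperatures. The gene (NM_001163061) occupies positions 88548020 to 88571061 of chromosome 9 (mm10) and is read from the plus strand. Its normalized counts were 340, 342 and 307 in cold-exposed Atf4WT and 1007, 762 and 778 in cold-exposed Atf4AKO iWAT. At RT they were 306, 307 and 454 in Atf4WT and 474, 537 and 973 in Atf4AKO iWAT. The 6 Atf4AKO libraries thus lay above the 6 Atf4WT libraries, with the smallest gap between Atf4WT RT replicate 2 and Atf4AKO RT replicate 0. The log2 difference between genotypes was 1.35 (SE 0.25) in the cold, a 2.55-fold difference, and 0.84 (SE 0.25) at RT. Without single libraries it ranged from 1.22 to 1.42 in the cold and from 0.53 to 1.05 at RT, where the lowest value came without Atf4AKO RT replicate 2. From RT to cold the level differed by −0.09 (SE 0.25) on the log2 scale in Atf4WT and by 0.42 (SE 0.25) in Atf4AKO iWAT, and the libraries overlapped in both cases. In the order of group means, Atf4AKO cold (849) and Atf4AKO RT (661) overlapped, as did Atf4WT RT (356) and Atf4WT cold (330), and only the step between the genotypes was free of overlap.

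Of the other zinc finger genes with a Zfp symbol, a list added after the data were seen, 344 were tested and 3 were called lower in cold-exposed Atf4AKO iWAT while none was called higher. A gene was called when its fold change was over 1.5 and its unadjusted limma p-value under 0.05, the threshold of the study. The 3 were *Zfp831* (log2 fold change −4.20), *Zfp296* (−1.22) and *Zfp429* (−0.63), with adjusted p-values of 0.0648, 0.154 and 0.296. Over all tested genes, 6.4% were called in the cold, 0.358% higher and 6.04% lower, and the median log2 fold change was 0.01 over the Zfp genes and 0.05 over all tested genes. Few genes were thus called on the side of *Zfp949*, which was itself chosen by its genotype difference. The median over all tested genes was also above 0.

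The genes most like *Zfp949* over the 12 libraries, among 11837 genes with a mean of at least 50, were *Eif4a2*, an RNA helicase of translation initiation (Pearson r = 0.834, n = 12 libraries), *Adamts7*, a secreted metalloproteinase (r = 0.829), and *Rslcan18*, another zinc finger gene (r = 0.819). These and the following correlations on the log2 scale are descriptions of likeness with no test, since each is among the highest of many and the libraries share group differences. *Eif4a2*, on chromosome 16, was between 9784 and 10496 in cold-exposed Atf4WT and between 14842 and 17393 in cold-exposed Atf4AKO iWAT. About the group means, the correlation with *Zfp949* was 0.82 for *Eif4a2*, 0.62 for *Adamts7* and 0.75 for *Rslcan18*. At RT, replicate 2 of each genotype was the highest of its group in both *Zfp949* and *Eif4a2*. In the cold the orders differed. Atf4WT cold replicate 2 and Atf4AKO cold replicate 1 were each the lowest of their group in *Zfp949* and the highest in *Eif4a2*.

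*Lhx6*, the homeodomain factor, had its lowest levels in cold-exposed Atf4WT iWAT and was higher in Atf4AKO iWAT in the cold. The gene (NM_008500) occupies positions 36081953 to 36105408 of chromosome 2 and is read from the minus strand. Its normalized counts were 157, 157 and 153 in cold-exposed Atf4WT and 226, 213 and 308 in cold-exposed Atf4AKO iWAT. At RT they were 184, 196 and 208 in Atf4WT and 178, 222 and 265 in Atf4AKO iWAT. The cold-exposed Atf4WT libraries were the lowest of all 12 and close to each other, and the genotypes overlapped at RT. The log2 difference between genotypes was 0.66 (SE 0.18) in the cold and 0.16 (SE 0.18) at RT, and without single libraries it ranged from 0.49 to 0.76 and from 0.02 to 0.31. From RT to cold it was −0.33 (SE 0.18) in Atf4WT, without overlap, and 0.17 (SE 0.18) in Atf4AKO iWAT, with overlap. In the order of group means (249, 222, 196 and 156), only the last step, from Atf4WT RT to Atf4WT cold, was free of overlap.

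Of 12 other LIM homeodomain genes and partners tested, 1 was called lower in cold-exposed Atf4AKO iWAT and none higher, with a median log2 fold change of −0.09, beside 6.04% lower and 0.358% higher among all tested genes. The gene called was *Lmo2*, a LIM-only partner used in blood and endothelial cells, at −0.60 (adjusted p = 0.191). *Lhx8*, the nearest relative of *Lhx6*, had means of 108 and 95.1 in cold-exposed Atf4WT and Atf4AKO iWAT. The cofactors *Ldb1* and *Ldb2*, which bridge LIM proteins, had log2 fold changes of −0.23 and 0.03. The genes most like *Lhx6* were *Tspan12*, a tetraspanin (r = 0.810), and *Nf1*, which encodes the RAS-inactivating protein neurofibromin (r = 0.802, both n = 12). About the group means these correlations were 0.68 and 0.66.

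*Mal*, the myelin and apical membrane proteolipid, was higher in Atf4AKO iWAT in the cold and fell with cold exposure. The gene (NM_010762) occupies positions 127633226 to 127656695 of chromosome 2 and is read from the minus strand. Its normalized counts were 188, 147 and 116 in cold-exposed Atf4WT and 256, 239 and 326 in cold-exposed Atf4AKO iWAT. At RT they were 306, 294 and 217 in Atf4WT and 388, 484 and 268 in Atf4AKO iWAT. The cold-exposed Atf4WT libraries were the lowest of the 12, and at RT the genotypes overlapped through Atf4AKO replicate 2. The log2 difference between genotypes was 0.88 (SE 0.25) in the cold and 0.45 (SE 0.25) at RT, and without single libraries it ranged from 0.70 to 1.05 and from 0.26 to 0.68. From RT to cold it was −0.86 (SE 0.25) in Atf4WT, without overlap, and −0.44 (SE 0.25) in Atf4AKO iWAT, with overlap. The group means ran from Atf4AKO RT (380) over Atf4AKO cold (274) and Atf4WT RT (272) to Atf4WT cold (150), and only the last step was free of overlap.

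The cold response averaged over both genotypes uses neither genotype contrast in this balanced design, so it was tested for all 6 genes. *Mal* was the only one of the 6 that passed the threshold. Its averaged log2 change was −0.65 (SE 0.17, adjusted p = 0.0103 from limma over 13404 genes). It missed the fold threshold without Atf4AKO RT replicate 1 (−0.56, adjusted p = 0.0254) and without Atf4WT cold replicate 2 (−0.57, adjusted p = 0.0242). Over all tested genes, 19.7% were called in this comparison, 9.12% higher and 10.6% lower, and 44.8% had an adjusted p-value under 0.05, so 1 of 6 is near the background. For the other 5 genes the averaged log2 changes were 0.17 (SE 0.18) for *Zfp949*, −0.44 (SE 0.34) for *Psd2*, −0.08 (SE 0.12) for *Lhx6*, 0.19 (SE 0.40) for *Dnase1l3* and −0.10 (SE 0.19) for *St6gal1*, with adjusted p-values between 0.318 and 0.725. Between RT and cold the libraries did not overlap for 3 of the 6 genes in Atf4WT iWAT (*Lhx6*, *Mal* and *Dnase1l3*) and for 1 of the 6 in Atf4AKO iWAT (*Dnase1l3*), where 46.8% and 41.7% of all tested genes did not overlap.

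**Figure D2:**
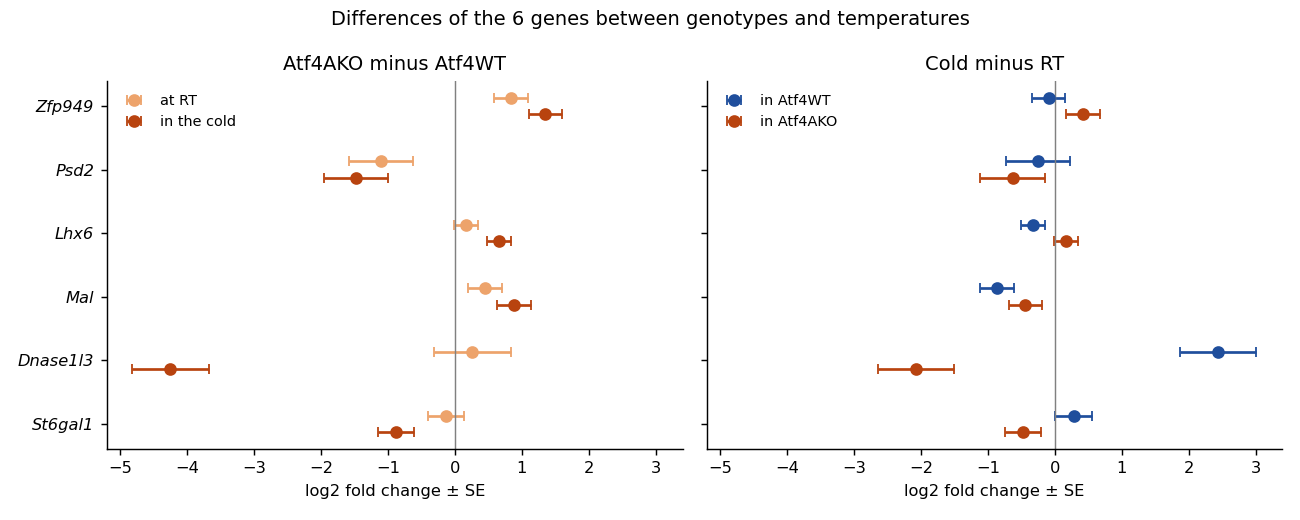
Log2 fold changes of the 6 genes with their SE, from limma on log2(normalized count + 1), between genotypes (left, at RT and in the cold) and between temperatures (right, in Atf4WT and Atf4AKO). *Dnase1l3* runs from 2.44 with cold in Atf4WT to −2.07 with cold in Atf4AKO iWAT, and *Mal* is below 0 with cold in both genotypes.

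Myelin markers were measured beside *Mal*. The genes most like it were *Prx*, which encodes periaxin of the myelin sheath (r = 0.968), and *Slc39a1*, a zinc importer (r = 0.960, both n = 12), each with 0.93 about the group means. Of the 20 Schwann cell and myelin markers, all tested, 7 were called higher and none lower in cold-exposed Atf4AKO iWAT, and their median log2 fold change was 0.42 against 0.05 over all tested genes. They included *Gldn* (1.62), *Ugt8a* (1.10), *Cldn19* (0.98), *Fa2h* (0.81) and *Prx* (0.67), with adjusted p-values between 0.167 and 0.356. The count was 2 without Atf4AKO cold replicate 2 or without Atf4WT cold replicate 2, and 4 without Atf4WT cold replicate 1. Of the other markers, which were not called, *Sox10* had a log2 fold change of 0.39, *S100b* 0.29 and *Mag* −0.01, and *Cnp* (−0.52, adjusted p = 0.23) and *Egr2* (−0.40, adjusted p = 0.837) were on the other side of 0.

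The sum over the Schwann cell and myelin markers was 13583, 11603 and 10963 in cold-exposed Atf4WT and 15221, 13164 and 18471 in cold-exposed Atf4AKO iWAT, with an overlap between Atf4WT replicate 0 and Atf4AKO replicate 1. At RT it was 20767, 21621 and 14029 in Atf4WT and 24074, 26336 and 15910 in Atf4AKO iWAT. Within each of the 4 groups, the library with the lowest sum was the one with the lowest *Mal*. All 20 markers had reads in every library, and their part in the values of *Mal* was not tested.

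Of the other MARVEL and proteolipid genes, 17 were tested, with a median log2 fold change of 0.14 in the cold. In cold-exposed Atf4AKO iWAT 3 were called higher and 1 lower, beside 0.358% and 6.04% of all tested genes. The higher ones included *Cmtm5* (1.24) and *Pllp*, which encodes plasmolipin of the myelin sheath (0.71), and the lower one was *Cmtm7* (−0.67), with adjusted p-values between 0.236 and 0.41. The closest relatives *Mall* and *Mal2* had log2 fold changes of 0.30 and −0.06. *Mall* lies 73 kb upstream of *Mal* and its cold-exposed libraries, at 203, 245 and 238 in Atf4WT and 270, 283 and 292 in Atf4AKO iWAT, did not overlap, but its fold was under the threshold (adjusted p = 0.274). Its level at RT was alike in both genotypes, with means of 306 and 309.

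*Psd2*, the ARF6 exchange factor, was lower in Atf4AKO iWAT but was measured with few reads. The gene (NM_028707) occupies positions 35964830 to 36014715 of chromosome 18 and is read from the plus strand. Its normalized counts were 13.4, 19.0 and 17.0 in cold-exposed Atf4WT and 5.31, 3.4 and 7.52 in cold-exposed Atf4AKO iWAT. At RT they were 17.5, 16.4 and 26.0 in Atf4WT and 8.37, 3.98 and 17.6 in Atf4AKO iWAT. The genotypes were apart in the cold and overlapped at RT through Atf4AKO replicate 2. The log2 difference was −1.48 (SE 0.48) in the cold and −1.10 (SE 0.48) at RT, on the log2(normalized count + 1) scale, which understates changes of so low a gene. Without single libraries it ranged from −1.71 to −1.24 in the cold and from −1.59 to −0.64 at RT. The cold-exposed Atf4AKO libraries held 3 to 7 reads and the cold-exposed Atf4WT libraries 13 to 18 reads of *Psd2*. From RT to cold it differed by −0.25 (SE 0.48) in Atf4WT and −0.63 (SE 0.48) in Atf4AKO iWAT, and neighbouring group means (19.9, 16.4, 9.99 and 5.41) overlapped at every step.

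The genes most like *Psd2* were *Slc7a1*, a transporter of cationic amino acids (r = 0.913), *Zfp94*, a zinc finger gene (r = 0.891), and *Shmt2*, the mitochondrial serine hydroxymethyltransferase of one-carbon metabolism (r = 0.864, all n = 12). *Slc7a1* ran from 219 to 308 in cold-exposed Atf4WT and from 96.4 to 170 in cold-exposed Atf4AKO iWAT, and *Shmt2* from 530 to 734 and from 376 to 465. Both were thus apart in the cold in the same direction as *Psd2*. This follows in large part from their choice by likeness to *Psd2*, and 16.5% of all tested genes did not overlap in the cold. The paper reported *Shmt2* expression as unchanged when ATF4 was absent. The duration of cold behind that statement was not given in the sources used here. Of 21 other ARF exchange factors, ARF proteins and ARF regulators, 3 were called lower and none higher in cold-exposed Atf4AKO iWAT, with a median of 0.01. Among all tested genes 6.04% were called lower and 0.358% higher, with a median of 0.05. The 3 ARF genes called were *Acap1* (−3.18), *Psd4* (−2.57) and *Psd* (−1.10), with adjusted p-values of 0.0703, 0.0648 and 0.0815, and *Psd3* was at 0.05. *Acap1*, an ARF6-inactivating protein, and *Psd4* had means of 158 and 147 in Atf4WT iWAT at RT and of 1113 and 585 in the cold, where *Psd2* had 19.9 and 16.4. *Arf6* itself was at 2542 and 2536 in cold-exposed Atf4WT and Atf4AKO iWAT.

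*Dnase1l3*, the secreted DNase, had the widest difference of the 6 genes, and it lay above RT in cold-exposed Atf4WT and below RT in cold-exposed Atf4AKO iWAT. The gene (NM_007870) occupies positions 7964533 to 7994573 of chromosome 14 and is read from the minus strand. Its normalized counts were 112, 404 and 680 in cold-exposed Atf4WT and 12.8, 18.1 and 16.1 in cold-exposed Atf4AKO iWAT. At RT they were 53.3, 41.4 and 83.4 in Atf4WT and 54.8, 49.8 and 116 in Atf4AKO iWAT. The cold-exposed Atf4AKO libraries were the lowest of all 12 and near each other, whereas the cold-exposed Atf4WT libraries ranged widely and Atf4WT cold replicate 0 was below Atf4AKO RT replicate 2. The log2 difference between genotypes was −4.25 (SE 0.57) in the cold, a 19.1-fold difference, and 0.26 (SE 0.57) at RT. Without single libraries it ranged from −4.99 to −3.70 in the cold, and at RT it was −0.12 without Atf4AKO RT replicate 2. From RT to cold it was 2.44 (SE 0.57) in Atf4WT and −2.07 (SE 0.57) in Atf4AKO iWAT, both without overlap. In the order of group means (399, 73.5, 59.4 and 15.7), only the last step, from Atf4WT RT to Atf4AKO cold, was free of overlap.

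The lymphocyte markers moved with *Dnase1l3* in Atf4WT iWAT. The sum over 17 listed B cell markers was 5191, 11021 and 18443 in cold-exposed Atf4WT and 561, 138 and 231 in cold-exposed Atf4AKO iWAT, and at RT it was 293, 219 and 5345 in Atf4WT and 868, 270 and 401 in Atf4AKO iWAT. The sum over 19 T cell markers was 1580, 10126 and 11843 in cold-exposed Atf4WT and 869, 356 and 473 in cold-exposed Atf4AKO iWAT. Among the 3 cold-exposed Atf4WT libraries, *Dnase1l3* had the same order as both sums, with replicate 0 lowest and replicate 2 highest. Among the cold-exposed Atf4AKO libraries, replicate 0 had the highest sums and the lowest *Dnase1l3*. All 17 B cell and all 19 T cell markers were called lower in cold-exposed Atf4AKO iWAT, beside 6.04% of all tested genes. Markers such as *Vpreb3* (mean 49.2 in cold-exposed Atf4WT, 5.38 to 9.43 in the other groups) passed the filter only through the group where they are high. A call of such a marker is partly built in. The medians of the 2 lists were −5.43 and −3.38, and none of these markers was called at RT. Only genes with reads in every library are listed, so none of these markers was at 0, and the part of these cells in the values of *Dnase1l3* was not tested.

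Markers of dendritic cells and macrophages, known to make *Dnase1l3*, were also measured. The sum over 16 dendritic cell markers was 4028, 4685 and 6449 in cold-exposed Atf4WT and 4116, 1616 and 3582 in cold-exposed Atf4AKO iWAT, and that over 15 macrophage markers was 36189, 15702 and 41735 against 32677, 6443 and 35504. Both sums overlapped between the genotypes, although 8 of 16 dendritic cell markers and 2 of 15 macrophage markers (*Timd4* and *Marco*) were called lower and none higher, with medians of −1.19 and −0.27. Among all tested genes 6.04% were called lower. The dendritic cell sum had the same order as *Dnase1l3* among the cold-exposed Atf4WT libraries. Its most abundant marker *Clec10a* had means of 1614 in cold-exposed Atf4WT and 1979 in cold-exposed Atf4AKO iWAT, with libraries from 972 to 2330 and from 812 to 2596. This 1 gene weighs heavily in the dendritic cell sum, so the overlap of the sum need not hold for the other markers. The part of dendritic cells and macrophages in the values of *Dnase1l3* was not tested either. The dendritic cell markers called included *Ccr7* (−5.26), *Ccl22* (−3.57), *Siglech* (−2.56) and *Flt3* (−2.42), with adjusted p-values between 0.0648 and 0.120. *Ccr9* was also called, but it passed the filter only through cold-exposed Atf4WT iWAT (mean 51.1, against 2.21 to 4.73 in the other groups). The genes of the whole table most like *Dnase1l3* were *Gimap5*, a GTPase of lymphocytes (r = 0.954), *Nxpe3* (r = 0.950) and *Sipa1*, an inactivator of the GTPase RAP1 (r = 0.950, all n = 12), with 0.91, 0.81 and 0.92 about the group means.

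Of 16 other DNases and DNA sensors, 3 were called lower and none higher in cold-exposed Atf4AKO iWAT, with a median of −0.32. Beside this, 6.04% of all tested genes were called lower and 0.358% higher, with a median of 0.05. The 3 called from this list were the DNA sensors *Tlr9* (−1.93) and *Aim2* (−1.57) and the adaptor *Sting1* (−1.14), with adjusted p-values of 0.204, 0.171 and 0.0735. None of the DNases was among them. The other DNases had log2 fold changes of −0.22 for *Dnase1*, 0.11 for *Dnase1l1*, −0.49 for *Dnase1l2* and −0.26 for the lysosomal *Dnase2a*. With cold averaged over the genotypes, *Dnase1* (0.68, adjusted p = 0.00608) and the mitochondrial nuclease *Endog* (0.72, adjusted p = 0.000765) rose, whereas *Dnase1l3* had 0.19.

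*St6gal1*, the sialyltransferase, was lower in cold-exposed Atf4AKO iWAT and differed little at RT. The gene (NM_145933) occupies positions 23224740 to 23360350 of chromosome 16 and is read from the plus strand. Its normalized counts were 534, 684 and 1085 in cold-exposed Atf4WT and 439, 273 and 523 in cold-exposed Atf4AKO iWAT. At RT they were 611, 531 and 681 in Atf4WT and 633, 480 and 554 in Atf4AKO iWAT. In the cold the groups were apart only by the small gap between 523 and 534, and at RT they overlapped. The log2 difference was −0.88 (SE 0.27) in the cold and −0.13 (SE 0.27) at RT, and in the cold it ranged from −1.11 to −0.60 without single libraries. From RT to cold it was 0.28 (SE 0.27) in Atf4WT and −0.47 (SE 0.27) in Atf4AKO iWAT, and neighbouring group means (768, 608, 556 and 412) overlapped at every step.

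The highest *St6gal1* was in Atf4WT cold replicate 2, the library with the highest B cell sum (18443), and the lowest was in Atf4AKO cold replicate 1, the library with the lowest B cell sum (138) and the lowest macrophage sum (6443). Without this last library the log2 difference in the cold was −0.62. Atf4WT RT replicate 2, with its B cell sum of 5345, had 681 of *St6gal1*, the highest of the 6 libraries at RT. The range of *St6gal1* over the 12 libraries, from 273 to 1085, was far narrower than that of the B cell sum, and the part of B cells in its values was not tested. The genes most like *St6gal1* were *Tlr9*, the endosomal sensor of CpG DNA (r = 0.982), *Sting1* (r = 0.961) and *Rassf2*, a RAS-associated protein (r = 0.951, all n = 12), with 0.97, 0.95 and 0.96 about the group means. *Tlr9* ran from 42.1 to 203 in cold-exposed Atf4WT and from 9.07 to 33.3 in cold-exposed Atf4AKO iWAT.

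**Figure D3:**
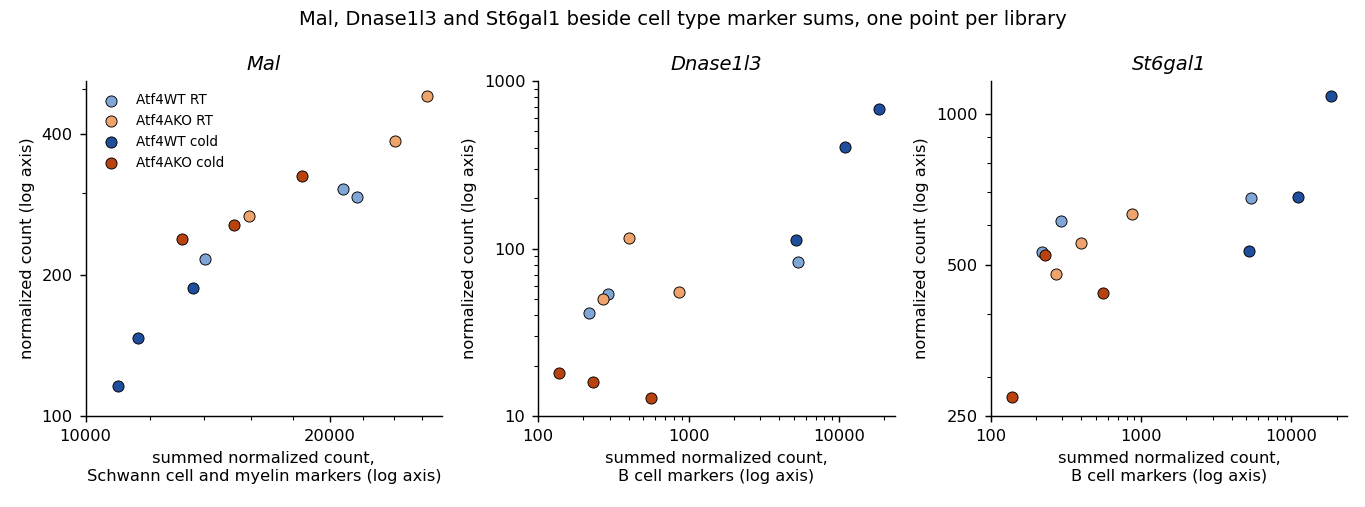
Normalized counts of *Mal*, *Dnase1l3* and *St6gal1* (y, log axes) against the summed normalized counts of 20 Schwann cell and myelin markers or 17 B cell markers (x, log axes), with 1 point per library in the colors of the 4 groups. The cold-exposed Atf4WT libraries have the 3 lowest values of *Mal*, and the cold-exposed Atf4AKO libraries have the 3 lowest values of *Dnase1l3* at B cell sums between 138 and 561. RT libraries with B cell sums between 219 and 401 have higher *Dnase1l3*, from 41.4 to 116.

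Of 27 other genes of the sialic acid pathway tested, 2 were called lower and none higher in cold-exposed Atf4AKO iWAT, with a median of 0.01, beside 6.04% called lower among all tested genes. They were the sialyltransferases *St8sia6* (−1.41, adjusted p = 0.422) and *St6galnac3* (−0.71, adjusted p = 0.280). The donor synthesis genes *Gne* and *Cmas*, at 0.01 and 0.08, and the sialidase *Neu1*, at 0.01, were close to 0, whereas *Nans*, also of donor synthesis, had −0.39 (adjusted p = 0.238) with its cold-exposed Atf4AKO libraries below the Atf4WT ones. With cold averaged over the genotypes, *St3gal5*, which makes the ganglioside GM3, rose by 1.41 (adjusted p = 6.99e-05) and *St6galnac5*, *B4galt2*, *St3gal2* and *Nans* fell, with log2 changes from −1.31 to −0.64, whereas *St6gal1* had −0.10.

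The genes around the 6 members were examined with the genotype tests, since they had not been chosen by them. Within 1 Mb of the start of a member, 99 other genes were listed and 92 were tested. After cold exposure 7 of these (7.61%) were called, 1 higher and 6 lower, against 6.4% of all tested genes, and at RT 1 (1.09%) was called against 0.463%. The share was thus close to the background in the cold. None of the 92 had an adjusted p-value under 0.05 with limma or edgeR in either comparison, while by limma 11 in the cold and 4 at RT were under 0.05 before adjustment, and DESeq2 gave 5 of 99 in the cold and none at RT with an adjusted p-value under 0.05. The count in the cold was 4 without Atf4WT cold replicate 2 or without Atf4AKO cold replicate 1. The median log2 fold change of the neighbours was 0.05 in the cold, the same as over all tested genes.

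Around *Zfp949*, the 3 genes called in the cold were *Bcl2a1d* (−3.12, SE 0.89, adjusted p = 0.139), *Bcl2a1b* (−2.47, SE 0.64, adjusted p = 0.101) and *Bcl2a1a* (−1.84, SE 0.70, adjusted p = 0.297), all lower while *Zfp949* was higher. They lie 184, 651 and 409 kb downstream of its start, encode near-identical survival proteins of blood cells and may share reads, so their single values are uncertain. *Bcl2a1b* was 83.2, 183 and 270 in cold-exposed Atf4WT and 64.8, 14.7 and 22.6 in cold-exposed Atf4AKO iWAT. *Tbx18*, a T-box factor of progenitors and mural cells 817 kb upstream, was the gene called at RT (−0.71, SE 0.19, adjusted p = 1 from limma). It was 162, 167 and 116 in Atf4WT and 101, 75.7 and 91.8 in Atf4AKO iWAT at RT, and in the cold it was again apart but under the fold threshold (−0.51, adjusted p = 0.285). The nearest neighbours *Syncrip* and *Trim43a* had −0.00 and −0.70 in the cold, and neither was called.

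Around *Psd2*, 1 of 30 tested neighbours was called in the cold, *Nrg2*, a neuregulin that signals through ERBB receptors, at −1.24 (SE 0.46, adjusted p = 0.283). It was 16.4, 22.2 and 26.4 in cold-exposed Atf4WT and 11.7, 3.4 and 14.0 in cold-exposed Atf4AKO iWAT and, like *Psd2*, is a low gene, which starts 233 kb downstream. At RT its means were 21.5 and 21.7. Around *Lhx6*, 1 of 11 was called, the centrosomal gene *Cntrl* at −0.64 (SE 0.18, adjusted p = 0.139), which is lower where *Lhx6* is higher and starts 996 kb away, at the edge of the window. *Mrrf*, the nearest tested neighbour of *Lhx6*, had 0.14.

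Around *Mal*, 1 of 22 was called, the phosphatase *Dusp2* of activated immune cells at −3.13 (SE 0.63, adjusted p = 0.0657). It was 119, 406 and 534 in cold-exposed Atf4WT and 53.1, 15.9 and 41.9 in cold-exposed Atf4AKO iWAT, the opposite direction to *Mal*. Around *Dnase1l3*, none of 7 was called, and the log2 fold changes ran from −0.05 to 0.47. Its nearest neighbour *Abhd6*, a monoacylglycerol lipase whose start is 8 kb upstream, had 0.27 (adjusted p = 0.525).

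Around *St6gal1*, 1 of 11 was called, and it was *Eif4a2*, the gene most like *Zfp949*. It starts 117 kb upstream and was 10072, 9784 and 10496 in cold-exposed Atf4WT and 15101, 17393 and 14842 in cold-exposed Atf4AKO iWAT, a log2 fold change of 0.64 (SE 0.17, adjusted p = 0.107). At RT it was 0.50 (adjusted p = 1), with overlap. *Adipoq*, whose promoter drives the Cre transgene, starts 78 kb upstream of *St6gal1* and had 0.26 in the cold (adjusted p = 0.573) and 0.01 at RT. *Rfc4*, which starts 97 kb upstream, was not called. It had 0.47 in the cold (adjusted p = 0.297 from limma), without overlap, and 0.38 at RT, with overlap. *Eif4a2*, *Rfc4* and *Adipoq* were thus on the other side of 0 from *St6gal1*, while the 11 tested neighbours ran from −0.43 to 0.64 in the cold.

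**Figure D4:**
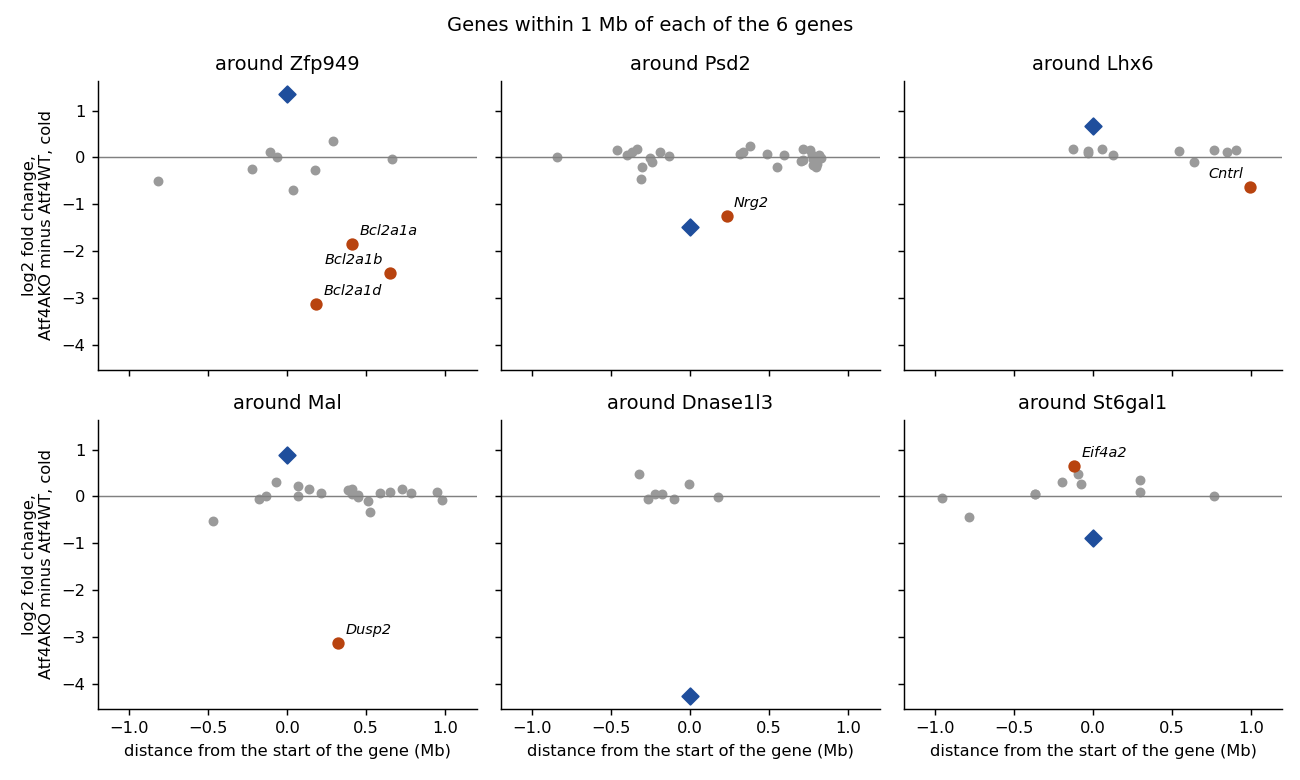
Log2 fold change of Atf4AKO minus Atf4WT in the cold (y) of the tested genes within 1 Mb against the distance of their start from that of each of the 6 genes (x, Mb, positive along its strand). Blue diamonds are the 6 genes themselves, labelled orange dots the 7 neighbours past the threshold and grey dots the rest, most of which lie near 0.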

How the data were processed

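RNA-seq of iWAT from 12 mice in 4 groups was used. The authors had filtered reads with SOAPnuke, aligned them with STAR to mm10, counted unique reads with featureCounts (strand setting not given in the sources used here) and divided counts by pyDESeq2 size factors, and they deposited these normalized counts, a linear signal. In each library 100% of values were whole multiples of the smallest value within 0.01 reads, which gave back the reads. Genes on the table have reads in all libraries.

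Group means were fitted with limma 3.58.1 (R 4.3.3) on log2(normalized count + 1) for genes with a mean of at least 10, with all 4 groups in one fit and Benjamini-Hochberg adjustment over 13404 genes. A gene was called at a fold over 1.5 and an unadjusted p under 0.05. edgeR 4.0.16 and DESeq2 1.42.0 were run on the recovered reads as alternatives, 20 alternatives in all, and the fit was tested on simulated data. Limma p-values set a difference against the spread between mice within groups, pooled over the 4 groups and shrunk towards a trend over genes. Each group held 3 mice. The members and the 20 gene lists were chosen with earlier results of these data known, so the members got no genotype test, and only their cold response averaged over genotypes was tested. The named genes were the members, up to 3 genes most like each by Pearson correlation, the nearest and the called neighbours within 1 Mb, and called or defining genes of the lists. Start site windows came from RefSeq (GRCm38.p6). Some genes that this rule names are not reported here.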

Additional observations from a re-analysis of the deposited data

Results flagged for a closer look

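*Dnase1l3* had a log2 difference from RT to cold of 2.44 in Atf4WT iWAT and of −2.07 in Atf4AKO iWAT. Every cold-exposed Atf4WT library was above every Atf4WT library at RT, and every cold-exposed Atf4AKO library was below every Atf4AKO library at RT. The difference between these effects was not tested, since *Dnase1l3* was chosen by its genotype difference.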

How the results depend on the processing

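All 238 genotype differences and all 238 within-genotype cold differences of the 6 genes, recomputed under the alternatives, moved by less than 1 SD between replicates, and 114 of 119 averaged cold responses kept their direction and side of the threshold. The averaged cold response of *Dnase1l3* turned to −0.09 without Atf4WT cold replicate 2, and that of *St6gal1* to 0.04 without Atf4AKO cold replicate 1 and 0.02 without Atf4WT cold replicate 0. Without single libraries they ran from −0.09 to 0.56 and from −0.24 to 0.04. *Mal* had −0.56 without Atf4AKO RT replicate 1 and −0.57 without Atf4WT cold replicate 2, so that, without single libraries, 0 to 1 of the 6 genes passed by limma. The cause of these changes was not tested.

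Of all tested genes, an adjusted p under 0.05 called 6011 in the averaged cold response, 4 between genotypes in the cold and 1 at RT, against 2644, 858 and 62 by fold and unadjusted p. At RT the count was 138 with edgeR, 110 with DESeq2, 29 at a mean of at least 50 and 47 to 129 without single libraries, and in the cold 598 to 1064 without single libraries. Neighbours called in the cold (7) were 4 at a mean of at least 50, 11 within 2 Mb, 4 to 9 without single libraries and 0 by adjusted p from limma, where 11 had an unadjusted p under 0.05. Neighbours called at RT (1) were 2 with DESeq2, 0 within 0.5 Mb, 1 to 4 without single libraries (4 without Atf4WT RT replicate 2) and 0 by adjusted p from limma, edgeR and DESeq2, where 4, 4 and 6 had an unadjusted p under 0.05.

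The replicate numbers were not treated as pairing the samples, since 8 of 18 correlations between same-numbered libraries of different groups, not all, were over 0.1 (−0.189 to 0.389). All 6 among the replicate 1 libraries were over 0.1 (0.179 to 0.389). With the replicate number as a block, 7 neighbours were called in the cold and 3 at RT, 926 and 69 of all tested genes, 2761 in the averaged cold response, and of the 6 genes again *Mal* (−0.65, adjusted p = 0.0082). At 3 to 28 reads, *Psd2* is limited by depth.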

Other observations

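The other marker lists were measured beside the 6 genes. None of 13 white adipocyte markers and none of 10 thermogenic markers was called between genotypes in the cold by limma, with a median log2 fold change of 0.23 for both. All 13 white adipocyte markers had log2 fold changes above 0, where the median over all tested genes was 0.05. The libraries of *Plin1* (0.23), *Cd36* (0.32) and *Car3* (0.24) did not overlap, with adjusted p-values between 0.451 and 0.809. Over all tested genes, 16.5% did not overlap in this comparison, so nothing is read from these 3. All 10 thermogenic markers rose with cold averaged over the genotypes (median 2.25). None of 11 endothelial, 5 epithelial, 3 neuronal and 8 skeletal muscle markers was called between genotypes in the cold, with medians of 0.03, −0.05, −0.38 and −1.52. Of 12 adipose progenitor markers, 1 (*Thy1*) was called lower in cold-exposed Atf4AKO iWAT and 8 fell with cold averaged over the genotypes. Of 5 lymph node stroma markers, 4 (*Cxcl13*, *Madcam1*, *Fut7* and *Bst1*) were called lower in cold-exposed Atf4AKO iWAT, with a median of −1.88, and of 6 plasma cell markers 1 (*Jchain*) was called lower. Among all tested genes 6.04% were called lower in this comparison. The summed lymph node stroma markers were 857, 799 and 1896 in cold-exposed Atf4WT and 340, 124 and 537 in cold-exposed Atf4AKO iWAT, without overlap, the same direction as *Dnase1l3* and *St6gal1*.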
